A study of Mus musculus with 24 samples.

Results

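The genes described are 10 nuclear receptors, Ppard, Ppara, Rxrb, Rxra, Rxrg, Thra, Thrb, Nr1h2, Rara and Rarb, and all 10 were found among the 13998 genes of the deposited table. Ppard and Rxrb were listed because earlier results of these data showed both lower in cast/cast than in b6/b6 mice, that is, they were chosen by the contrast of their normalised counts between the genotypes, so their genotype difference is given as a description and was not tested. The other 8 were listed as relatives and partners of these genes, and the question was whether they differ between the genotypes in which Rxrb and Ppard are low. Gene expression was measured by SAGE-Seq, which reads a single short tag near the 3′ end of each transcript, in the hypothalamus of 24 adult male F2 mice with 1 library per mouse. The 12 cast/cast mice carried CAST/EiJ alleles on both copies of a segment of chromosome 17, the 12 b6/b6 mice carried C57BL/6J alleles there, and all 24 were b6/b6 in the rest of the genome. All mice had taken a 10 d choice test between a carbohydrate/protein (C/P) and a fat/protein diet, and tissue was collected about 48 h after the diets were given again. Per the study's methods, mice were picked for extreme intake, cast/cast mice with high and b6/b6 mice with low C/P kcal, so that genotype and intake cannot be told apart between the groups. The segment holds many genes with CAST alleles, and Ppard and Rxrb cannot be told apart from the rest of it.

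Nuclear receptors are transcription factors, many of which are switched by small lipophilic ligands such as fatty acids, oxysterols, thyroid hormone and retinoic acid. The retinoid X receptors (Rxra, Rxrb and Rxrg) serve as the shared partner with which the peroxisome proliferator-activated receptors (Ppara, Ppard), the liver X receptor beta (Nr1h2), the thyroid hormone receptors (Thra, Thrb) and the retinoic acid receptors (Rara, Rarb) pair on DNA. In the hypothalamus, ligands of these receptors report on nutrient and hormone state, and thyroid hormone there is known to act on feeding and energy expenditure.

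Ppard lies on chromosome 17 from 28232754 to 28301469 (GRCm38, plus strand) and Rxrb on the same chromosome and strand from 34031812 to 34038403, both within the CAST segment. The other 8 genes lie on chromosomes 1, 2, 7, 11, 14 and 15, where all 24 mice were b6/b6. The count of each gene rests on the tags that begin at its CATG site nearest the 3′ end. The reference tags of 27 bases are shown for the genes on which the results turn, since each is the only part of the transcript that was read. They were located in the GENCODE transcripts (GRCm38) that match the RefSeq accessions of the table, and CATG, where the tagging enzyme cuts, is in capitals.
Ppard: CATGacactggctcacctctcggtcac
Rxrb: CATGgtttttgccctggacctcttttg
Rxra: CATGagaggagagacaaatatgagcgt
Rxrg: CATGgaaagcaaacaaatggaaaagaa
Nr1h2: CATGcaccttgagtggagagaggttag
Thra: CATGccatcttgactgtagggtcagga
The Ppard tag lies at chr17:28300806-28300832 and the Rxrb tag at chr17:34038320-34038346, each in the 3′ UTR in the last part of the transcript, 669 and 78 bases before its annotated end. All 4 RefSeq forms of Rxrb share its tag, so that its count does not separate them. Over the 10 genes there were 13 such tags, all 13 in a 3′ UTR, and 0 of the 13 was also the last tag of an annotated transcript of another gene. Ppara, Thrb and Rara each have 2 tags from transcripts that end at different places.

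Libraries held 7754202 to 13082873 tag hits (aligned tags counted per gene). All 10 hypothalamic marker genes, among them Pomc, Agrp and Hcrt, were present, with a summed level of 5608 to 33065 normalised counts per mouse. Single markers varied widely between mice, Agrp from 15.1 to 3686, Hcrt from 20.2 to 4102 and Nkx2-1 from 36.8 to 723.6. The sum was 29220 in b6/b6 replicate 12, 10993 to 19955 in the other b6/b6 and 5608 to 33065 in the cast/cast libraries. A pair of b6/b6 libraries, replicates 6 and 12, stood apart in their whole profile. Their median rank correlations with the other libraries were 0.831 and 0.789, though cast/cast replicate 6 was also low, at 0.823. On the second axis of variation the b6/b6 pair had loadings of 0.495 and 0.640, far above the highest of the other 22, 0.171. Endothelial markers (Cldn5, Flt1, Pecam1 and Slco1a4, 4 of 4 present) summed to 755.0 and 875.5 in these libraries against 95.8 to 293.9 in the other b6/b6 and 175.4 to 373.1 in the cast/cast libraries, while their microglial sums, 1389 and 1394, were below those of the other b6/b6 libraries (1830 to 3679). Pituitary markers (2 of 5 present) were 158.9 and 469.8 there, 0 to 183.6 in the other b6/b6 and 0 to 264.8 in the cast/cast mice, so that only replicate 12 was above both ranges. Results that rest on these libraries are given with and without them, and the part of the markers in them was not tested.

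Rxrb, the retinoid X receptor beta, was low in every cast/cast mouse. In b6/b6 mice its level was 521.9, 894.2 and 1398 normalised counts (lowest, median and highest) with a mean of 969.4 ± 298.6 (SD, n = 12). In cast/cast mice it was 92.6, 208.2 and 284.5, with a mean of 208.9 ± 62.8 (n = 12). The groups did not overlap, and the means differed 4.64-fold, a log2 difference of -2.21 on the log2(normalised count + 1) scale that is used throughout. Groups without overlap were found for 0.336% of all genes and for 10.2% of the genes in the CAST segment. Every Rxrb value rested on at least 86 tag hits. A CAST base change within the tag could lower the count without less RNA; the CAST sequence was not used here, so for Rxrb and Ppard alike this cannot be told apart from a lower level. In whole tissue, fewer cells that express a gene and less RNA per cell cannot be told apart, here and below.

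Ppard, the lipid-activated receptor PPAR delta, was low in both genotypes and lower in cast/cast. Its level was 9.95, 24.4 and 47.9 normalised counts in b6/b6 mice (lowest, median, highest), with a mean of 25.3 ± 11.1. In cast/cast mice it was 0, 6.29 and 17.1, with a mean of 7.53 ± 5.67. The means differed 3.35-fold (log2 difference -1.89), but the groups overlapped: 8 of 12 cast/cast mice were below every b6/b6 mouse, and 10 of 12 b6/b6 mice were above every cast/cast mouse. The counts behind it were small, 315 tag hits over all b6/b6 and 95 over all cast/cast libraries. Replicate 1 of cast/cast had 0 tag hits for Ppard, and a count of 0 allows up to 3 tag hits or 3.23 normalised counts in that library. The replicates of b6/b6 that stood apart were within the range of the others for both genes, and without them the log2 differences were -2.30 for Rxrb and -1.86 for Ppard.

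**Figure D1:**
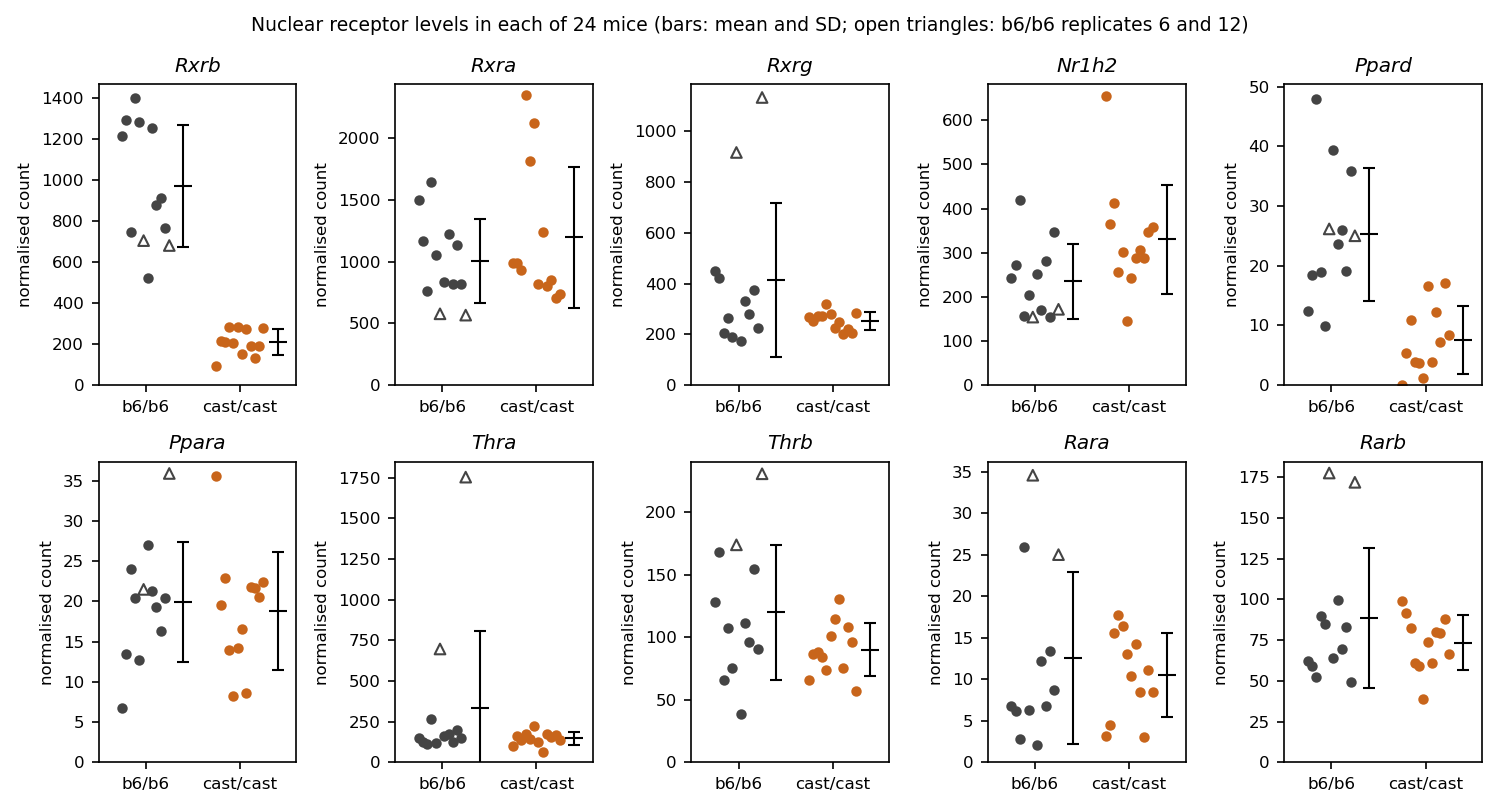
Normalised counts of the 10 receptors in each mouse, 1 panel per gene, with b6/b6 mice in grey and cast/cast mice in orange; bars give the mean and SD of 12 mice, cut at 0 for Thra in b6/b6. Rxrb does not overlap between the genotypes, Ppard overlaps in part, and the open triangles (b6/b6 replicates 6 and 12) lie above all other mice for Rxrg, Thra and Rarb.

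Study numbers, which the labels give for each mouse without a date, were higher in b6/b6 (median 269.5) than in cast/cast mice (median 120.5). Among mice numbered up to 150 (5 b6/b6 and 7 cast/cast), Rxrb was 3.52-fold and Ppard 5.23-fold lower in cast/cast. Among mice numbered above 150 (7 and 5), the folds were 5.26 and 2.17. Within b6/b6, Rxrb was 709.1 ± 129.5 in the low-numbered and 1155 ± 235.5 in the high-numbered mice, whereas Ppard was 30.5 ± 6.67 and 21.5 ± 12.5. The lower level in cast/cast was thus seen in both ranges of numbers, with a different size in each. Since both genes were chosen for this contrast in these mice, this is a description only.

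None of the 8 relatives was called different between the genotypes. A call required an unadjusted P of at most 0.01 in limma and mean normalised counts that differed at least 1.5-fold the same way. Calls were made for 1.49% of all 13998 genes, for 24.4% of the 430 genes in the CAST segment and for 0.713% of the 13317 genes outside it, where the 8 lie. At an unadjusted P under 0.05, 1 of the 8 (Nr1h2) was found, against 8.13% of all genes. The median size of the log2 difference was 0.25 for the 8 genes and 0.19 for all genes. edgeR called 1 of the 8, Thra, and DESeq2 called 1, Rxrg, beside 2.79% and 2.82% of all genes for these tools. Rxrg just missed the call in edgeR (log2 difference -0.70, P = 0.0101), with nearly the same difference as in DESeq2 (-0.70, P = 0.00743). DESeq2 did not call Thra (-0.46, P = 0.0807). Without b6/b6 replicates 6 and 12 limma called 0 of the 8, beside 0.982% of all genes, and the other tools were not run on those mice.

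Of the other retinoid X receptors, Rxra, the broadly expressed alpha form, was not called. It was 567.7, 943.8 and 1650 normalised counts in b6/b6 mice (lowest, median, highest) against 706.5, 961.7 and 2348 in cast/cast mice, with means of 1009 ± 341.8 and 1197 ± 571.0. The ranges overlapped widely, and only 3 cast/cast mice (replicates 4, 5 and 6, at 2348, 1813 and 2126) were above every b6/b6 mouse. The log2 difference was 0.20 ± 0.22 (SE), with limma P = 0.370 and adjusted P = 0.794. Its 95% interval ran from a 0.843- to a 1.56-fold level in cast/cast. Rxra was 1.79-fold higher in cast/cast among low-numbered mice (log2 difference 0.72, P = 0.0270) and 0.877-fold among high-numbered ones (-0.25, P = 0.330). The test of the difference between these ranges, added after the data were seen, gave limma P = 0.0211 and adjusted P = 0.342 over all genes, which does not pass.

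Rxrg, the gamma form, which is enriched in striatum and some endocrine cells, was 172.2, 304.9 and 1133 normalised counts in b6/b6 against 202.2, 259.99 and 320.4 in cast/cast mice. The highest values, 916.7 and 1133, were those of b6/b6 replicates 6 and 12, and the other b6/b6 mice ranged from 172.2 to 447.9. With all mice the ratio of means was 0.615 and the log2 difference -0.45 ± 0.24 (P = 0.0756, adjusted P = 0.621, limma). On all mice DESeq2 called Rxrg (P = 0.00743, adjusted P = 0.229), and edgeR gave P = 0.0101 (adjusted P = 0.301). Without b6/b6 replicates 6 and 12 the ratio was 0.873 and the log2 difference -0.13 ± 0.16 (P = 0.402, limma). The interval then ran from 0.728- to 1.14-fold.

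The makeup of the RXR tags includes Rxrb, and it is therefore given as a description. Each transcript yields 1 tag whatever its length, so levels of different genes may be set side by side without a length correction. In cast/cast mice the shares and the sum also depend on the Rxrb tag. A CAST base change in it could lower the count, as stated above, and this was not tested. In b6/b6 mice Rxra made up 42.2% ± 8.90 (SD), Rxrb 40.3% ± 6.30 and Rxrg 17.6% ± 12.9 of the RXR tags. In cast/cast mice the shares were 70.2% ± 6.80, 13.3% ± 4.11 and 16.5% ± 3.85. The summed level of the 3 genes was 2392 ± 574.1 normalised counts in b6/b6 against 1660 ± 628.0 in cast/cast, with ranges of 1528 to 3311 and 1100 to 2904. The share of Rxrb was at most 21.4% in cast/cast and at least 28.6% in b6/b6 mice.

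**Figure D2:**
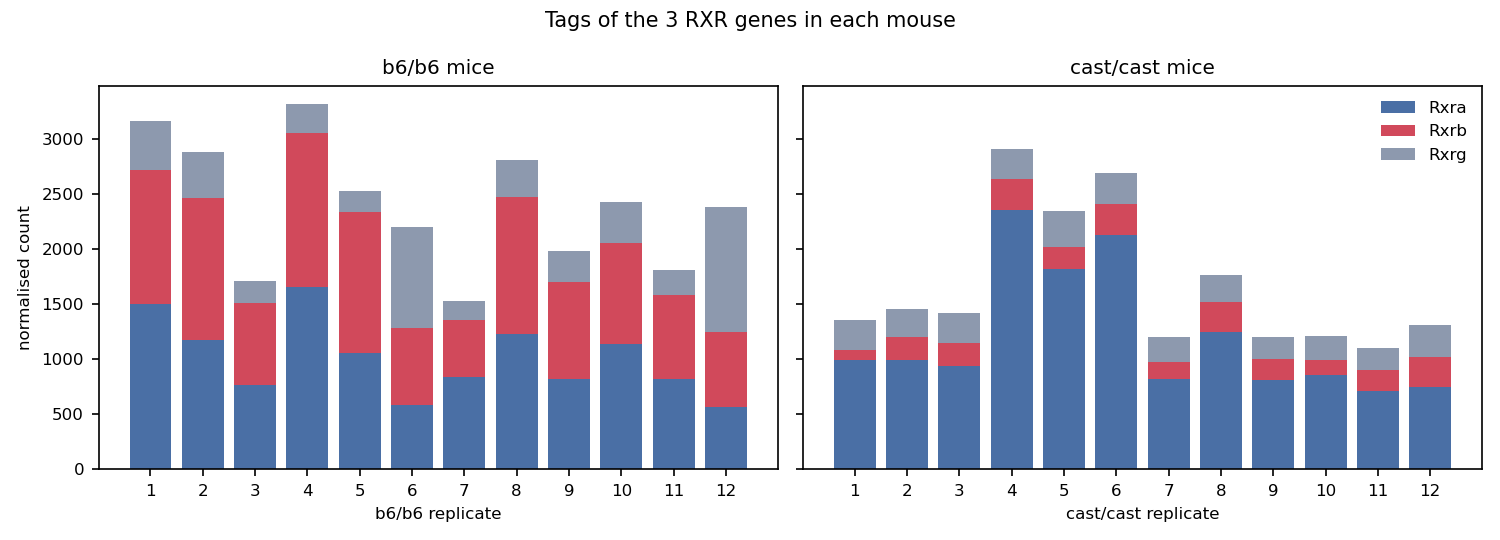
Normalised counts of Rxra, Rxrb and Rxrg stacked for each of the 12 b6/b6 and 12 cast/cast mice. Rxrb makes up 28.6% to 50.7% of the b6/b6 columns but 6.85% to 21.4% of the cast/cast columns, and the large Rxrg parts belong to b6/b6 replicates 6 and 12. Whether a CAST base change in the tag lowered the Rxrb counts of cast/cast mice was not tested.

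Ppara, the PPAR that drives fatty acid oxidation in liver, was also a gene of low level and was not called. It was 6.79, 20.4 and 35.9 normalised counts in b6/b6 (lowest, median, highest) against 8.19, 20.05 and 35.5 in cast/cast mice, and the groups overlapped over nearly their whole range. The log2 difference was -0.08 ± 0.24 (P = 0.747, adjusted P = 0.936, limma), with an interval from 0.669- to 1.34-fold. It rested on 249 tag hits in b6/b6 against 229 in cast/cast. Of the tags of these PPAR genes, Ppard gave 55.4% ± 8.03 in b6/b6 against 27.4% ± 14.1 in cast/cast mice. The same limit on the CAST sequence of the tag holds for the Ppard share in cast/cast mice.

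Nr1h2, the oxysterol receptor LXR beta, had the lowest P of the 8 genes, with a difference opposite in sign to that of Rxrb. It was 154.2, 222.8 and 420.5 normalised counts in b6/b6 against 144.8, 304.2 and 655.5 in cast/cast mice, with means of 235.7 ± 84.8 and 330.6 ± 123.5. The groups overlapped, and 1 cast/cast mouse was above and 1 below every b6/b6 mouse. The ratio of means was 1.40, under the required 1.5, and the log2 difference 0.48 ± 0.20 had P = 0.0234 and adjusted P = 0.578 in limma. Without b6/b6 replicates 6 and 12, which were among its low values (154.2 and 171.8), the log2 difference was 0.39 and P = 0.0705.

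Thra, the thyroid hormone receptor alpha and the main form in brain, was 114.3, 154.2 and 1753 normalised counts in b6/b6 against 66.7, 148.1 and 226.7 in cast/cast mice. Replicates 6 and 12 of b6/b6 had 697.1 and 1753, from 746 and 1612 tag hits, while the other b6/b6 mice ranged from 114.3 to 266.7. The medians were thus close and the means, 335.9 ± 474.3 and 147.3 ± 40.3, far apart. With all mice the ratio of means was 0.438 and the log2 difference -0.59 ± 0.34 (P = 0.0975, adjusted P = 0.639, limma). Without these libraries the ratio was 0.931, the log2 difference -0.11 ± 0.18 and P = 0.537. The edgeR call on all mice (P = 0.00651, adjusted P = 0.267) therefore concerned a gene whose mean was set by 2 libraries, the same 2 in which endothelial markers were high and microglial markers low.

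Thrb, the thyroid hormone receptor beta, was 38.4, 109.1 and 230.6 normalised counts in b6/b6 against 57.1, 87.1 and 130.5 in cast/cast mice, with a log2 difference of -0.30 ± 0.22 (P = 0.185, adjusted P = 0.694, limma). Here too b6/b6 replicates 6 and 12 were the highest, at 173.8 and 230.6, and without them the difference was -0.13 (P = 0.549).

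The retinoic acid receptors were not called either. Rarb, the beta form, which is known in striatal neurons, was 49.5, 76.4 and 177.5 normalised counts in b6/b6 against 39.2, 76.6 and 99.02 in cast/cast mice, with a log2 difference of -0.18 ± 0.20 (P = 0.377, adjusted P = 0.798, limma). Its highest values were again b6/b6 replicates 6 and 12, at 177.5 and 171.8, and without them the difference was 0.04. Rara, the alpha form, was the least abundant of the 10 in b6/b6 mice, at 2.08, 7.76 and 34.6 normalised counts against 3.10, 10.7 and 17.8 in cast/cast mice. Its log2 difference was -0.03 ± 0.38 (P = 0.944, adjusted P = 0.988, limma), and the interval from 0.572- to 1.68-fold was among the widest. It rested on 161 tag hits in b6/b6 against 127 in cast/cast mice, and the spread between b6/b6 mice was wide, from 2 to 37 hits.

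**Figure D3:**
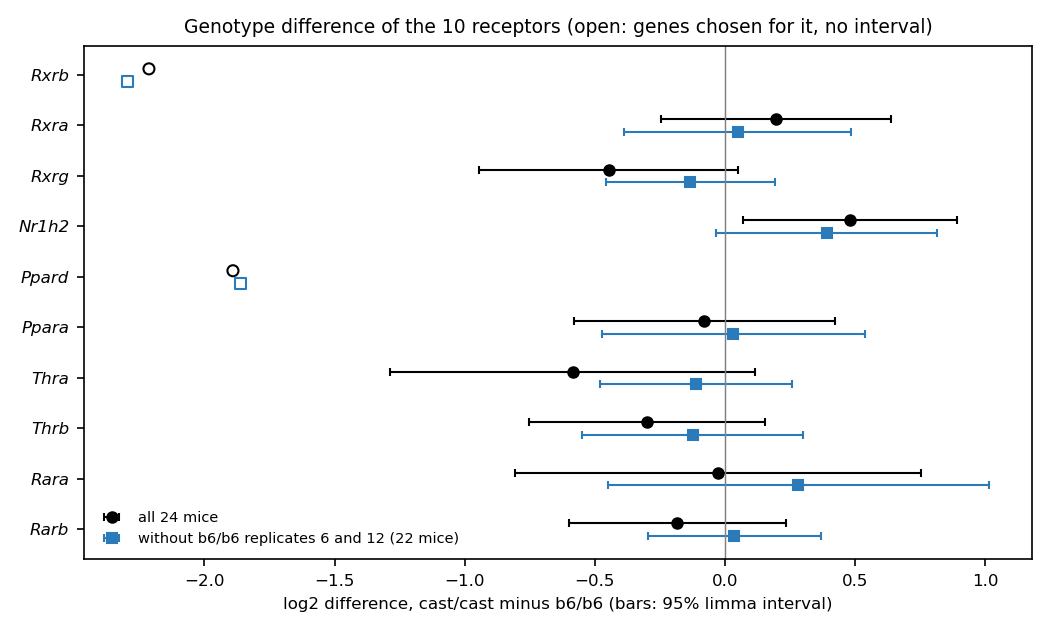
Log2 difference of each receptor, cast/cast minus b6/b6, with the 95% limma interval, for all 24 mice (black) and without b6/b6 replicates 6 and 12 (blue, 22 mice). The 8 relatives lie between -0.59 and 0.48 with all mice and between -0.13 and 0.39 without those libraries, while Rxrb and Ppard (open symbols, chosen for this difference and drawn with no interval) lie near -2.

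The order of the levels was compared within each genotype, neighbour by neighbour, by exact two-sided sign-flip permutation tests over 12 mice, with adjustment over 18 pairs. Since Rxrb and Ppard were chosen for their level in cast/cast against b6/b6 mice, their places are described by counts of mice, with no test. In b6/b6 mice Rxra (1009) and Rxrb (969.4) led, each above the other in 6 of 12 mice, and Rxrb was above Rxrg in 10 of 12 mice. Rxrg was followed by Thra (adjusted P = 0.0143), whose mean of 335.9 could not be ordered against that of Nr1h2, 235.7 (adjusted P = 0.879). Thra was above Nr1h2 in 5 of 12 mice. Without b6/b6 replicates 6 and 12 the means were 158.1 for Thra and 250.2 for Nr1h2. The order of levels was not tested without these libraries. Below Nr1h2 came Thrb (adjusted P = 0.0143) and then Rarb, and these last could not be ordered (adjusted P = 0.0586). Rarb was above Ppard in 12 of 12 mice, Ppard was above Ppara in 9 of 12, and Ppara was above Rara (adjusted P = 0.0234).

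In cast/cast mice Rxra was above every other member, and above Nr1h2, the next, in 12 of 12 mice (adjusted P = 0.00293). Nr1h2 (330.6) and Rxrg (254.1) could not be ordered (adjusted P = 0.104), Rxrg was above Rxrb (208.9) in 9 of 12 mice, and Rxrb was above Thra in 10 of 12. Of the lowest genes in cast/cast mice, Ppara and Rara could not be ordered (adjusted P = 0.0583), and Rara was above Ppard in 6 of 12 mice. The places of Rxrb and Ppard in cast/cast mice are subject to the limit on their tags given above.

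Lists of genes linked to these receptors by function were counted with the same calls, to be read against 0.713% of the genes outside the segment. At an unadjusted P under 0.05 in limma, 1 gene was found in each of 4 lists (coregulators, PPAR, LXR and thyroid hormone genes) and 0 in the other 3, beside 7.13% of the genes outside the segment. Over all 7 lists edgeR called 1 gene and DESeq2 called 1, beside 2.04% and 2.02% of those genes. Of the other nuclear receptors, 0 of 27 tested (39 listed) were called and 0 had an unadjusted P under 0.05, with a median log2 difference of -0.20 against -0.02 over all genes. The lowest P were those of Esr1 (estrogen receptor alpha, log2 difference -0.45, P = 0.0780), Nr1d2 (the clock repressor REV-ERB beta, -0.38, P = 0.0901) and Pgr (progesterone receptor, -0.33, P = 0.101). Without b6/b6 replicates 6 and 12, Nr1d2 was at -0.11.

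Of the receptor coregulators, 0 of 16 were called, with a median of -0.07. Gps2, a subunit of the NCoR corepressor complex, was 29.2 ± 10.5 in b6/b6 against 43.4 ± 19.3 in cast/cast mice (log2 difference 0.51, P = 0.0279, adjusted P = 0.586, limma). Tbl1xr1, of the same complex, was at -0.33 (P = 0.0604), and Ncoa2, a p160 coactivator, also at -0.33 (P = 0.0683).

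Of the PPAR target genes, 0 of 25 tested (27 listed) were called, with a median of -0.01. Cpt2, the inner-membrane carnitine palmitoyltransferase of fatty acid oxidation, came nearest, at 57.6 to 356.3 normalised counts in b6/b6 against 243.5 to 481.1 in cast/cast mice, with means of 225.0 ± 89.3 and 332.3 ± 70.0. Its log2 difference of 0.71 ± 0.25 had P = 0.00796 (adjusted P = 0.469, limma), and the ratio of 1.48 was just under the required 1.5. Without b6/b6 replicates 6 and 12 the difference was 0.36 (P = 0.0107, ratio 1.29). Cpt2 was called with no minimum ratio (beside 1.22% of the genes outside the segment), among mice numbered up to 150 (beside 2.68%) and without the b6/b6 mice numbered above every cast/cast mouse (beside 5.43%). Ehhadh, a peroxisomal enzyme of the same pathway, was at -0.43 (P = 0.0573), and Ucp3, a mitochondrial carrier, at 0.29 (P = 0.0685). edgeR called 1 gene of the list, Hadhb, a subunit of the mitochondrial trifunctional protein.

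Of the LXR target genes, 0 of 12 were called, with a median of -0.07. Abca1, the cholesterol exporter, was 72.4 to 218.6 normalised counts in b6/b6 against 46.3 to 98.8 in cast/cast mice, with a log2 difference of -0.49 ± 0.17 (P = 0.00863, adjusted P = 0.472, limma) and a ratio of 0.685. With b6/b6 replicates 6 and 12 left out it was at -0.34 (P = 0.0300). With libraries rescaled to the same total Abca1 was called, beside 0.886% of the genes outside the segment. Pltp, a phospholipid transfer protein, was at -0.48 (P = 0.131), and Lpcat3, which remodels phospholipids, at 0.20 (P = 0.240).

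Of the thyroid hormone responsive genes, 0 of 7 tested (9 listed) were called, with a median of 0.14. Hr, a corepressor induced by thyroid hormone in brain, was 754.2 ± 229.6 in b6/b6 against 1287 ± 1284 in cast/cast mice, with a highest value of 5326 in 1 cast/cast mouse (log2 difference 0.53, P = 0.0381, adjusted P = 0.607, limma). Nrgn, a neuronal calmodulin-binding protein, was at 0.30 (P = 0.181), and Me1, malic enzyme, at 0.14 (P = 0.300). Of the retinoic acid target genes, 0 of 5 tested (8 listed) were called, with a median of 0.14. Their lowest P were those of Dhrs3 (a retinaldehyde reductase, 0.37, P = 0.259), Tgm2 (transglutaminase 2, 0.14, P = 0.564) and Stra6 (the retinol transporter, 0.14, P = 0.648).

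Of the genes for ligand supply and carriers, 0 of 13 tested (16 listed) were called, with a median of 0.06. Fabp7, the brain fatty acid binding protein, was 4385 ± 1839 in b6/b6 against 6411 ± 2991 in cast/cast mice (log2 difference 0.55, P = 0.0771). Rbp4, the retinol carrier, was at 0.45 (P = 0.240). When b6/b6 replicates 6 and 12 were left out, Fabp7 was at 0.24 and Rbp4 at 0.01.

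The genes around Rxrb and Ppard on chromosome 17 were counted in the same way. Within 250 kb of Rxrb, in the region of the major histocompatibility complex, 10 of 29 tested genes were called, 7 lower and 3 higher in cast/cast, beside 24.4% of the segment as a whole (18.6% lower and 5.81% higher). With libraries rescaled to the same total, 8 were called lower and 1 higher, again beside 24.4% of the segment. Ring1 and Vps52 were lost and Rgl2, a Ral guanine nucleotide exchange factor, was gained. Without b6/b6 replicates 6 and 12 the calls were 8 lower and 2 higher, with Ring1 lost and Rgl2 gained. The share of the segment without these libraries was not counted. Among mice numbered up to 150 they were 5 lower and 2 higher, beside 20.9% of the segment. Of the 6 nearest tested genes 1 was called, higher in cast/cast. Slc39a7, a zinc transporter read from the opposite strand whose start lies 121 bases from that of Rxrb, was 888.1 ± 263.4 in b6/b6 against 1035 ± 508.5 in cast/cast (log2 difference 0.13 ± 0.22, P = 0.546, limma). H2-Ke6, a steroid dehydrogenase gene, was at 0.28 (P = 0.183), and Ring1, a Polycomb ubiquitin ligase, was called higher (0.62 ± 0.15, P = 0.000282, adjusted P = 0.0494, limma). The Ring1 call was lost without b6/b6 replicates 6 and 12, where the log2 difference was 0.49 (P = 0.000942, adjusted P = 0.145, limma) and the ratio of 1.42 was under the required 1.5. On the other side, Col11a2, a fibrillar collagen gene that starts 1033 bases past the end of Rxrb, had a low level of 10.0 ± 3.49 and 6.24 ± 3.69 (log2 difference -0.78, P = 0.0216). Brd2, a bromodomain protein, was at 0.03 (P = 0.758), and H2-DMa, a class II antigen loading gene, at 0.87 (P = 0.0425).

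Called lower near Rxrb were Wdr46 (a ribosome assembly factor, 270.3 ± 90.8 in b6/b6 against 11.3 ± 3.85 in cast/cast), Zbtb22 (a zinc finger gene, 262.4 ± 116.3 and 15.6 ± 7.94), Psmb8 (an immunoproteasome subunit, 66.4 ± 26.3 and 8.82 ± 4.10) and BC051226 (32.1 ± 7.95 and 10.8 ± 6.81). AA388235 had 673 tag hits in b6/b6 against 2 in cast/cast libraries, both in 1 mouse. H2-K1 and H2-K2, class I histocompatibility genes, were also called lower, at log2 differences of -1.26 and -3.90, but share sequence with their many relatives and are uncertain. Vps52, a vesicle tethering subunit, was called higher (237.0 ± 64.4 and 366.9 ± 99.5), as was Psmb9, another immunoproteasome subunit (11.8 ± 9.01 and 29.0 ± 10.8). Genes called in either direction thus lay among genes that were not called. A CAST base change within the tag could likewise lower the count of any of these neighbours without less RNA, and this was not tested.

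Within 250 kb of Ppard, 0 of 6 tested genes were called by limma, beside 24.4% of the genes in the CAST segment. edgeR and DESeq2 also called 0 of the 6, beside 2.79% and 2.82% of all genes, and their shares in the segment were not counted. Whether 0 of 6 differs from the share of the segment was not tested. Zfp523 alone had an unadjusted P under 0.05 in limma, beside 8.13% of all genes. The nearest on either side were Zfp523, a zinc finger gene (41.9 ± 12.4 in b6/b6 against 28.01 ± 15.0 in cast/cast, log2 difference -0.73, P = 0.0162, adjusted P = 0.543, limma), and Fance, a DNA repair gene (-0.17, P = 0.463). Rpl10a, a ribosomal protein gene, was at 0.20 (P = 0.409), Tead3, a transcription factor of the Hippo pathway, at -0.24 (P = 0.155), and Tcp11 at -0.10 (P = 0.726). The last of the 6, Fkbp5, a glucocorticoid-induced chaperone, was at 0.10 (P = 0.599) and is named to complete the count.

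**Figure D4:**
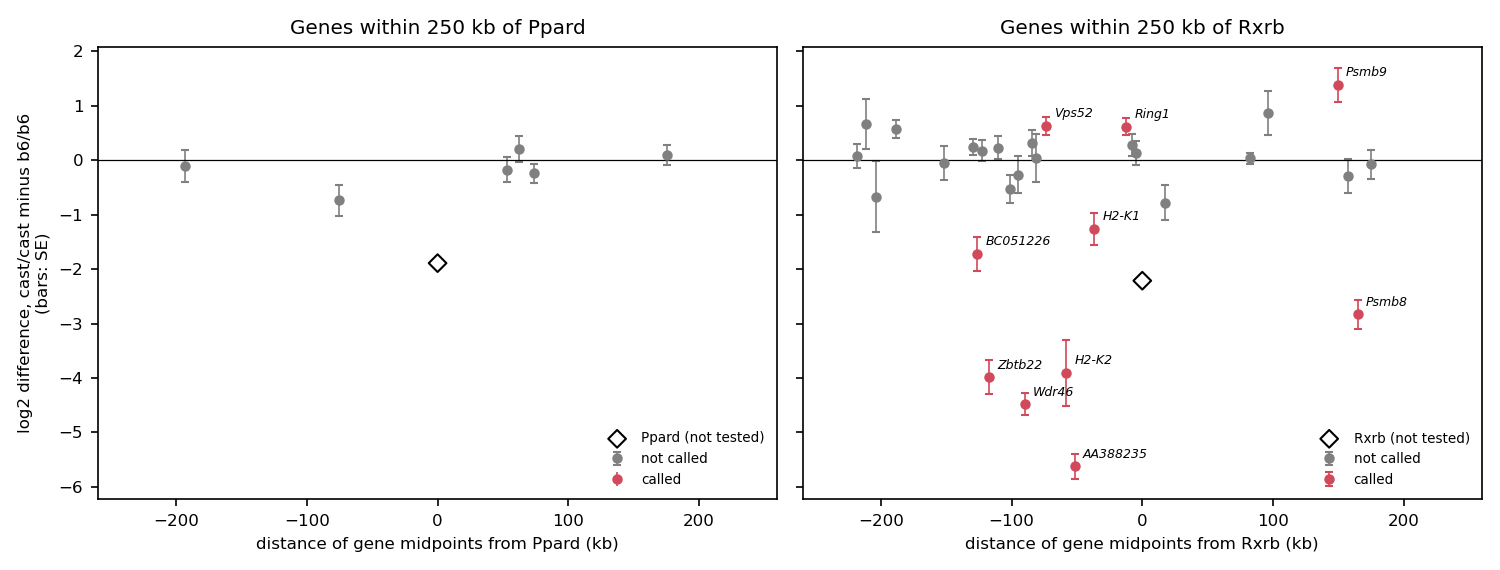
Log2 difference, cast/cast minus b6/b6, with its SE, of the genes within 250 kb of Ppard (left, 6 genes) and Rxrb (right, 29 genes), by the distance between gene midpoints in kb. Called genes are red: 0 near Ppard and 10 near Rxrb, beside 24.4% of the genes in the CAST segment. Of the 10, 7 lie below and 3 above 0, and the open diamonds are Ppard and Rxrb themselves.

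Within a genotype, the level of Rxrb was compared with that of each of the other 9 members over 12 mice, as Pearson's r and Spearman's rho with permutation P, adjusted over 18 relations. In b6/b6 mice Rxrb rose with Rxra (r = 0.81, adjusted P = 0.0295, and rho = 0.81, adjusted P = 0.0279), and r was 0.88 without the 2 mice farthest from the median of Rxrb. In the same mice Rxrb was inversely related to Ppard (r = -0.75, adjusted P = 0.0400, and rho = -0.79, adjusted P = 0.0279), and r was -0.73 without the 2 farthest. Without b6/b6 replicates 6 and 12 the values were 0.80 and -0.79 over 10 mice. These were the 2 of 18 relations that passed, by r and by rho. With libraries rescaled to the same total they did not pass by r, at 0.72 and -0.75 (adjusted P = 0.0703 for both), but both passed by rho, at 0.78 (adjusted P = 0.0364) and -0.83 (adjusted P = 0.0247). These levels also differed by study number within b6/b6. Like Rxrb, Rxra was lower in the low-numbered (723.8 ± 137.8) than in the high-numbered mice (1213 ± 291.9), while Ppard was higher (30.5 and 21.5). Whether the relations hold within a range of study numbers was not tested.

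In cast/cast mice neither relation passed. Rxrb and Rxra had r = 0.44 (adjusted P = 0.333) and rho = 0.46 (adjusted P = 0.345). Rxrb and Ppard had r = 0.17 (adjusted P = 0.709) and rho = -0.26 (adjusted P = 0.679), and r was -0.73 without the 2 mice farthest from the median of Rxrb. One of these was replicate 1, which had both the lowest Rxrb (92.6) and the 0 for Ppard. Whether the relations differ between the genotypes was not tested.

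The members were also compared with the axes of variation of the whole profile, in an analysis added after the data were seen, with adjustment over 40 relations. The first axis took 39.4% of the variance over 9620 genes. By r, Rxra rose with it in b6/b6 mice (0.98, adjusted P = 0.0008, permutation) and likewise in cast/cast (0.94, adjusted P = 0.00147), where its rho of 0.66 did not pass (adjusted P = 0.0729). Rxrb rose with it in b6/b6 mice (r = 0.79, adjusted P = 0.0123, permutation), whereas its r of 0.52 in cast/cast mice did not pass (adjusted P = 0.126). Ppard had r = -0.62 and -0.53 in the respective genotypes, and neither passed (adjusted P = 0.0699 and 0.126). The highest loadings on the first axis were those of cast/cast replicates 6, 4 and 5, the 3 mice with the highest Rxra. The second axis, with 20.04% of the variance, had r = 0.97 with Thra, 0.91 with Rarb and 0.90 with Rxrg in b6/b6 mice, where replicates 6 and 12 loaded highest. Without the 2 farthest mice these were 0.79, 0.67 and 0.56. Rara (0.80), Thrb (0.72) and Nr1h2 (-0.64) also passed by r in b6/b6 mice. In cast/cast mice Nr1h2 (-0.86), Rarb (-0.83), Rxra (0.76), Ppara (-0.75), Rxrb (0.67) and Rara (0.65) passed by r. With both axes as covariates 0 of the 8 relatives was called, as against 1.16% of all genes, and the log2 differences were 0.07 for Rxra, -0.06 for Rxrg and 0.08 for Thra, against -2.26 for Rxrb and -1.78 for Ppard.

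**Figure D5:**
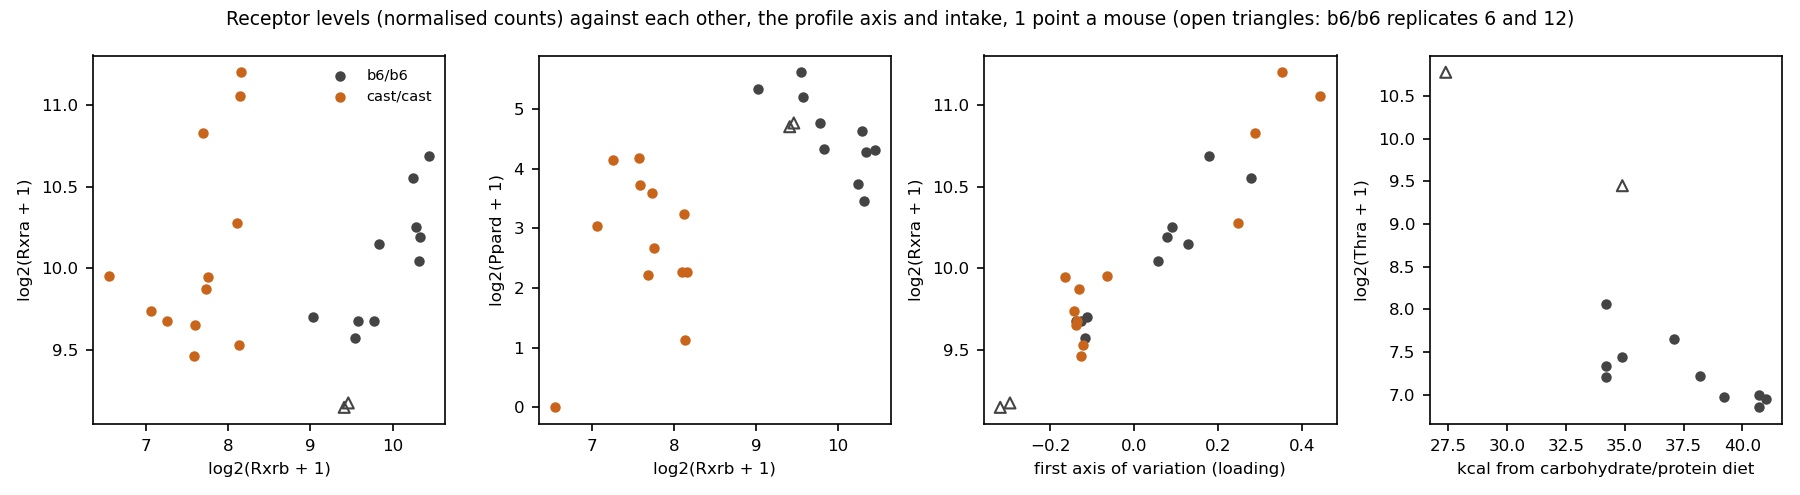
Levels as log2(normalised count + 1), 1 point per mouse, of Rxra and Ppard against Rxrb, of Rxra against the first axis of variation, and of Thra against C/P kcal in b6/b6 mice only. Rxra rises and Ppard falls with Rxrb in b6/b6 (r = 0.81 and -0.75), Rxra follows the axis in both genotypes (r = 0.98 and 0.94), and the high Thra values are b6/b6 replicates 6 and 12 (open triangles).

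The genes whose levels over the 24 mice were most like those of each receptor, once the mean of each genotype was subtracted, are given as a description. For Rxrb, among 11994 genes, these were Adrbk1 (a G protein-coupled receptor kinase, r = 0.83), Nek5 (a NIMA-related kinase, 0.82) and Gramd1a (a sterol transfer protein, 0.80), on chromosomes 19, 8 and 7. For Ppard, among 11995 genes, they were Pim3 (a serine/threonine kinase, 0.89), Lfng (a glycosyltransferase that modifies Notch, 0.89) and 5031425E22Rik (0.88), on chromosomes 15, 5 and 5. None lies on chromosome 17, and the points share library depth and the axes of variation given above.

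The members were also compared with intake within each genotype, over 40 relations. C/P kcal spanned 27.4 to 41.0 in b6/b6 against 77.8 to 106.6 in cast/cast mice, and total kcal 94.8 to 120.2 and 104.0 to 133.1. Rxrb had r = 0.29 with C/P kcal in b6/b6 against -0.04 in cast/cast mice, with adjusted P of 0.651 and 0.962. For Ppard r was -0.05 and 0.06 (adjusted P = 0.962 for both). The only relation that passed was Thra with C/P kcal in b6/b6 mice (r = -0.81, adjusted P = 0.0312), and its rho of -0.78 did not (adjusted P = 0.0748). Without the 2 mice farthest from the median intake, which leaves a narrower range of C/P kcal, r was -0.54. Without b6/b6 replicates 6 and 12 it was -0.73 over 10 mice (unadjusted permutation P = 0.0123). How far the relation rests on single mice was not tested. With rescaled libraries the relation did not pass (r = -0.79, adjusted P = 0.0616). In cast/cast mice Thra had r = 0.23 (adjusted P = 0.695) and rho = 0.47 (adjusted P = 0.522) with C/P kcal.

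Since the striatum lies near the hypothalamus and expresses Rxrg and Rarb, these genes were compared with the summed level of striatal markers (5 of 6 present, among them Drd1a, Ppp1r1b and Rgs9), which was 1542 to 3219 normalised counts in b6/b6 against 1959 to 3449 in cast/cast mice. Of 4 relations 1 passed. Rarb was inversely related to the sum in cast/cast mice (r = -0.77, adjusted P = 0.0070, rho = -0.73, adjusted P = 0.0403), and r was -0.65 without the 2 farthest mice. With rescaled libraries r was -0.82 (adjusted P = 0.00576), while the rho of -0.64 did not pass (adjusted P = 0.113). Rarb also had r = -0.85 with the first axis of variation in these mice. In b6/b6 mice the relation of Rarb with the marker sum did not pass (r = -0.33, adjusted P = 0.395, permutation). Without b6/b6 replicates 6 and 12 its r was 0.42, opposite in sign. Rxrg had r = 0.62 (adjusted P = 0.0661) and rho = 0.62 (adjusted P = 0.0691) in cast/cast mice, but r = 0.04 with rescaled libraries. In b6/b6 mice its r was -0.18 (adjusted P = 0.579) with all mice and 0.80 without replicates 6 and 12, whose striatal sums of 1682 and 1542 were the lowest of the group.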

How the data were processed

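Hypothalamus RNA of 24 mice (12 cast/cast and 12 b6/b6, grouped by the genotype label) was profiled as SAGE tags. The signal values deposited by the authors are tag hits per gene, mapped by them to RefSeq mRNA and to GRCm38/mm10 (SOLiD SAGE Analysis Software, modified) and scaled with 1 DESeq size factor per library. The deposited table also holds the authors' p-value, fold change ratio and log2 fold change columns and the authors' mean normalised counts, none of which was used. The CAST sequence of the tags was not used here. The 19529 rows reduce to 13998 genes, since repeated rows of a gene held identical values. In every library 100% of values were whole multiples of 1 step, within 0.05 tag hit, and gave whole tag hits. Totals were 7754202 to 13082873 per library, the median being 10383038 for cast/cast and 10032338.5 for b6/b6. A floor of 3 tag hits covers counting error only, as tags carry no molecular identifiers. The lowest mean of any gene was 6.03. No pair of the 276 pairs of libraries was close to a duplicate (lowest chi-square per degree of freedom 15.3). Nothing says that mice of a genotype came from separate litters. P-values measure the spread between these mice.

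The genotypes were compared gene by gene (means from 5 up) on log2(normalised count + 1) by limma 3.58.1 (lmFit, then eBayes with trend), in R 4.3.3, with no covariate, and adjusted by Benjamini-Hochberg over all genes. Differences are on this scale, which understates the change of low genes. Permutation tests used every sign flip for levels and 100000 resamples for correlations, in Python 3.11.15 with scipy 1.17.1 and numpy 2.4.6. edgeR 4.0.16 and DESeq2 1.42.0 were run on the recovered tag hits. On simulated mice with 3-fold changes, limma called 96.5% of 198 changed genes and 0.740% of the unchanged ones.

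The members, lists, tests and named genes were chosen with earlier results of these data known. Named were all members, every called gene and the 3 lowest P of each list, called neighbours and the 3 nearest tested on each side, and the 3 most correlated genes for Rxrb and Ppard. Some genes of the lists are not reported here by name. Hadhb, Nr1h3, Esrrg, Acaa2, Rgl2, Fkbp5 and Tcf7l2 were named after their values were seen. Positions came from the table for 13277 genes and from RefSeq (GRCm38.p6) for 470, and 251 had no single position. Alternatives were other pseudocounts, filters, scalings, tools, thresholds and study number as a covariate or a limit. Leaving out libraries that stood apart, profile axes and the test between study number ranges were added after the data were seen.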

Additional observations from a re-analysis of the deposited data

How the results depend on the processing

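The differences of Rxrb and Ppard kept their sign under all 13 alternatives computed for them, within 1 SD of the spread between mice. Since both genes were chosen for this contrast in the same mice, the kept sign is a description and no separate support. The count of 0 called among the 8 relatives became 1 with edgeR (Thra, log2 difference -1.18) and 1 with DESeq2 (Rxrg, -0.70), and was 0 with the other alternatives, leaving out libraries and adjusted P included. Of the lists, DESeq2 called 1 other nuclear receptor (beside 2.02% of the genes outside the segment), edgeR 1 PPAR target (Hadhb, beside 2.04%), rescaling to equal totals 1 LXR target (Abca1, beside 0.886%), and dropping the minimum ratio 1 PPAR target (Cpt2) and 1 LXR target (Abca1), beside 1.22%. With study numbers up to 150 alone, 1 PPAR target was called (Cpt2), beside 2.68%. Without the b6/b6 mice numbered above every cast/cast mouse, when 5.43% of the genes outside the segment were called, the calls were 2 other nuclear receptors (Nr1h3, Esrrg), 1 coregulator (Ncoa2), 2 PPAR targets (Cpt2, Acaa2) and 1 thyroid hormone responsive gene (Nrgn). By Pearson's r, rescaling left 0 of 40 intake and 0 of 18 Rxrb relations. By rho it left 2 of the 18, as without rescaling, but 0 of 4 striatal relations, where 1 had passed. Rescaling shifted the median log2 difference of all genes by -0.09. Near Rxrb the count of 10 called was at the least 7, with study numbers up to 150 (beside 20.9% of the segment). It was at the most 12, with numbers above 150 (8 lower and 4 higher, share of the segment not counted). The cause of these changes was not tested. Signs of uncalled relatives turned as follows. Ppara was at 0.032 without b6/b6 replicates 6 and 12, 0.057 also without cast/cast replicate 6, and 0.018 with both profile axes as covariates. Under the same 3 settings Rarb was at 0.036, 0.11 and 0.067, and Rara at 0.28, 0.24 and 0.46. Rara was at 0.41 with study numbers above 150 and 0.087 without the b6/b6 mice of highest numbers. Rxra was at -0.25 with study numbers above 150 and -0.038 without all 3 libraries, and Thra at 0.078 with both axes. No paired analysis was possible because replicate numbers only follow accession order. The values of Ppard, Ppara and Rara rest on few tag hits per mouse.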
